A study of Mus musculus with 33 samples.

Results

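Cytochrome P450 enzymes were examined as 1 gene superfamily: all protein-coding genes on chromosomes 1 to 19 of the mm9 GENCODE vM1 annotation whose name is Cyp followed by a digit. The rule found 98 genes of 21418 annotated protein-coding genes on these chromosomes, in 17 families on 15 chromosomes. It uses no measured value, but it was chosen with earlier results of these data known. The lists came from chromatin immunoprecipitation with sequencing (ChIP-seq) in E14 mouse embryonic stem cells (mESC), either wild type (WT) or of a Uhrf1 knockout line (Uhrf1 KO), and in embryoid bodies (EB) grown from both genotypes and collected at week 1, 2 and 3. The mESC of both genotypes were kept in serum and leukemia inhibitory factor on gelatin or on plates coated with embryonic fibroblasts, and EB formation was started in hanging drops. Each genotype stands for 1 cell line and each antibody, genotype and stage for 1 library, so no difference between WT and KO below has a replicate check.

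The P450 enzymes are membrane-bound haem proteins that insert 1 oxygen atom into a substrate with electrons passed on by a reductase. Families Cyp2, Cyp3 and Cyp4 hold most of the enzymes that oxidise drugs, plant compounds, fatty acids and eicosanoids in liver, gut, kidney and lung, and they lie in tandem arrays of closely related copies. Cyp26 enzymes remove retinoic acid and thereby shape its gradients in the embryo, Cyp51 carries out a step of sterol synthesis in nearly every cell, and Cyp1 enzymes are induced through the aryl hydrocarbon receptor. The remaining families make steroid hormones (Cyp11, Cyp17, Cyp19, Cyp21), turn over cholesterol and bile acids (Cyp7, Cyp8, Cyp27, Cyp39, Cyp46) or activate and degrade vitamin D (Cyp27b1, Cyp24). H3K4me3 marks promoters in use or poised for use, H3K27me3 is the mark of Polycomb repression, H3K9me3 marks heterochromatin, and Uhrf1 is a nuclear protein that binds H3K9me3 and hemimethylated DNA.

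Of the 98 genes, 76 belonged to Cyp2, Cyp3 or Cyp4 (50, 9 and 17 genes), 7 to Cyp26, Cyp1 or Cyp51, and 15 to the other families. Neighbouring members with gaps of at most 200 kb were joined into 37 runs. Only 8 runs held 5 or more genes, but together they carried 65 members. The largest was the Cyp2c array of 14 genes at chr19:39081509-40261823, followed by 9 Cyp2d genes at chr15:82200958-82624675. Runs of 8 genes were formed by Cyp2j (chr4:95694225-96330845), by Cyp4x1, Cyp4b1 and Cyp4a genes (chr4:114778928-115320322), by Cyp3a (chr5:146106148-146924861) and by Cyp2a, Cyp2b, Cyp2f, Cyp2g and Cyp2t genes (chr7:27450246-27943687).

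The promoters differed in sequence as well as in arrangement. CpG dinucleotides were counted within 500 bases of each start and divided by the number that the base composition would give. The median of this ratio was 0.559 over all genes but 0.152 over the 98 P450 genes, 0.135 for Cyp2, Cyp3 and Cyp4, 0.389 for Cyp26, Cyp1 and Cyp51 and 0.250 for the other families. At a ratio of at least 0.6, 46.5% of all promoters were CpG-rich against 9 P450 promoters (9.18%), namely Cyp46a1, Cyp51, Cyp2r1, Cyp20a1, Cyp26a1, Cyp2u1, Cyp4v3, Cyp24a1 and Cyp39a1. The windows from 250 bases before to 50 bases into 8 genes are shown because they span this range, 5′ to 3′ on the strand of the gene in mm9 coordinates, with every CpG in capitals. In the first 5, of developmental, sterol and aryl hydrocarbon response genes, Cyp26a1 held 26 CpG, Cyp51 22, Cyp1b1 16, Cyp26b1 10 and Cyp1a1 4, whereas in the last 3, drug and fatty acid oxidising enzymes of the large arrays, each window held 1.
Cyp26a1 (chr19:37772048-37772347, plus strand): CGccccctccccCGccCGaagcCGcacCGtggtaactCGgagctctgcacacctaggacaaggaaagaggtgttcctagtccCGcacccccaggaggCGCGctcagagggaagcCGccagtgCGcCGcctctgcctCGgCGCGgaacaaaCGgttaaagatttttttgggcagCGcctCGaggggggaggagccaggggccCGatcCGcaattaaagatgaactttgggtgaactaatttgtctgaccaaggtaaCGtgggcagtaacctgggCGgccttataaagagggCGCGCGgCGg
Cyp26b1 (chr6:84543691-84543990, minus strand): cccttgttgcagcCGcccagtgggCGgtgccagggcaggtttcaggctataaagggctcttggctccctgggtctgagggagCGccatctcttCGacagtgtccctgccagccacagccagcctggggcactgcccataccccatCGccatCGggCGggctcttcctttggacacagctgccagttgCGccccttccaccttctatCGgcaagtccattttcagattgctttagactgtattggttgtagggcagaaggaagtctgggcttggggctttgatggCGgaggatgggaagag
Cyp51 (chr5:4104697-4104996, minus strand): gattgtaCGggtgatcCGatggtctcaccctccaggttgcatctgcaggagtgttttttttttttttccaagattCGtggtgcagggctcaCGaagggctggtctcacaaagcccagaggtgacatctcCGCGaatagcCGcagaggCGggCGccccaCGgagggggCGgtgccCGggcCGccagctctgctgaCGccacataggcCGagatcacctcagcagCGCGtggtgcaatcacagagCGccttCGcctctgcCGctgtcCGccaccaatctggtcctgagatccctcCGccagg
Cyp1b1 (chr17:80114352-80114651, minus strand): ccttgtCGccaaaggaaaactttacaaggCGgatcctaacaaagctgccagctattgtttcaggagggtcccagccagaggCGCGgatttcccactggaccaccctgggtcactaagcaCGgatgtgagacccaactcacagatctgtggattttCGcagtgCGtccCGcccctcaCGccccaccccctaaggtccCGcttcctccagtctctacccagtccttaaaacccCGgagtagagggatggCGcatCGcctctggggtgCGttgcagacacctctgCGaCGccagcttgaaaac
Cyp1a1 (chr9:57545170-57545469, plus strand): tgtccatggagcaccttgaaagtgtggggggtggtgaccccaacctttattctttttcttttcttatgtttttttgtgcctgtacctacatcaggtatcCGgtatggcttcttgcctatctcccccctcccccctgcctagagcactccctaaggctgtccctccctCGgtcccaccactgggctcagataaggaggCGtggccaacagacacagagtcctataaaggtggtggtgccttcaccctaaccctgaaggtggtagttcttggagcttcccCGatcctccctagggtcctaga
Cyp3a11 (chr5:146691491-146691790, minus strand): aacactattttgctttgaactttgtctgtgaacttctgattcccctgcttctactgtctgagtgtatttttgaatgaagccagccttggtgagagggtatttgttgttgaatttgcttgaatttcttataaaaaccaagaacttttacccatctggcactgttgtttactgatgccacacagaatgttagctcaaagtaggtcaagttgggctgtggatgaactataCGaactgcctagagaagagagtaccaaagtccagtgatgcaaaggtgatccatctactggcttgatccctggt
Cyp2c29 (chr19:39315191-39315490, plus strand): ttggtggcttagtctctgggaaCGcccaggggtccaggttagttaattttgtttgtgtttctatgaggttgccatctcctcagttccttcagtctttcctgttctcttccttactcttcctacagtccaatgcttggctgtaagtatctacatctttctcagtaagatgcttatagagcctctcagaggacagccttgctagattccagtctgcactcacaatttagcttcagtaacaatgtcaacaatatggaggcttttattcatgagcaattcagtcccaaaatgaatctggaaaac
Cyp4a14 (chr4:115168698-115168997, minus strand): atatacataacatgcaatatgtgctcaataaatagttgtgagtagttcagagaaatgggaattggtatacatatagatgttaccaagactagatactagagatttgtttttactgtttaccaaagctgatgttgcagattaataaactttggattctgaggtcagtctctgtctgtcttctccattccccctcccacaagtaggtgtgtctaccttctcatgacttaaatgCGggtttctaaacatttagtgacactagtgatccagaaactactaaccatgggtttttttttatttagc

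The letters GCGTG, the core read by the aryl hydrocarbon receptor, were searched on both strands. They occurred in 37.3% of all promoter windows and in 20 of the 98 P450 windows, among them 1 match each in Cyp1a1, Cyp1b1 and Cyp51. The letters AGTTCANNNNNAGTTCA, 1 strict form of the direct repeats read by retinoic acid receptors, were searched as well. These letters are those of the element known from Cyp26a1, so that their match in that gene follows from the choice of letters, and their absence from the other windows says nothing of other forms of the repeat. The match is shown as sequence only. Cyp26a1 encodes a retinoic acid hydroxylase whose own induction by retinoic acid is well known. The repeat lay 32 to 16 bases before the start and is shown with its flanks at chr19:37772246-37772302, plus strand, where it reads as the reverse complement of the searched letters with the half-sites in capitals.
Cyp26a1 repeat: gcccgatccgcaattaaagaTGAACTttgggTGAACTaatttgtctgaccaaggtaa

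A promoter was called marked when a deposited domain overlapped the window of 2 kb (H3K4me3) or 5 kb (H3K27me3, H3K9me3) on either side of the gene start by at least 1 bp. The calls below refer to these windows, and a gene without a call could still hold a domain farther inside. Promoters with H3K4me3 alone are called active, with both H3K4me3 and H3K27me3 bivalent, with H3K27me3 alone repressive, and with neither unmarked. Shares carry 95% Wilson intervals and differences of shares carry 95% Newcombe intervals. Both cover counting error over genes only, and since neighbouring genes share domains they are too narrow as a measure of reproducibility. The sequencing depth of the libraries is unknown from the lists, and the lists were of very different length: WT H3K27me3 domains covered 960 Mb in mESC and 101, 1165 and 791 Mb in EB in order of weeks, against 84.1, 180, 467 and 420 Mb in KO. The KO mESC H3K27me3 list held 722 domains with a median mean read count per bin of 0.914, against 8161 domains and 4.93 in WT. As checks of the labels, the Uhrf1 promoter carried H3K4me3 in all 8 lists, which does not test the knockout. In mESC of either genotype 6 of 7 mESC markers carried H3K4me3, as did 3 of 6 fibroblast markers. The same 6 mESC markers also carried it in EB of both genotypes at weeks 2 and 3. This count therefore does not tell mESC lists from EB lists.

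Most P450 promoters lacked H3K4me3 throughout. In WT mESC 24 of the 98 promoters carried the mark (24.5%, 17 to 33.9%), against 64.1% of all promoters, a difference from the other genes of -39.8 percentage points (-47.3 to -30.4). In WT EB the counts were 21, 23 and 28 in order of weeks, where 62.8%, 66.4% and 67.0% of all promoters were marked. In KO they were 18, 18, 22 and 23 from mESC to week 3, where 58.0%, 57.9%, 65.5% and 66.8% of the other genes were marked. Altogether 66 of the 98 promoters had no H3K4me3 domain in any of the 8 lists, 14 had one in all 8 and 18 in some. Counts taken across several lists, here and below, were made for P450 genes only and have no share of all genes beside them. The map of calls sets out each gene by list.

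**Figure D1:**
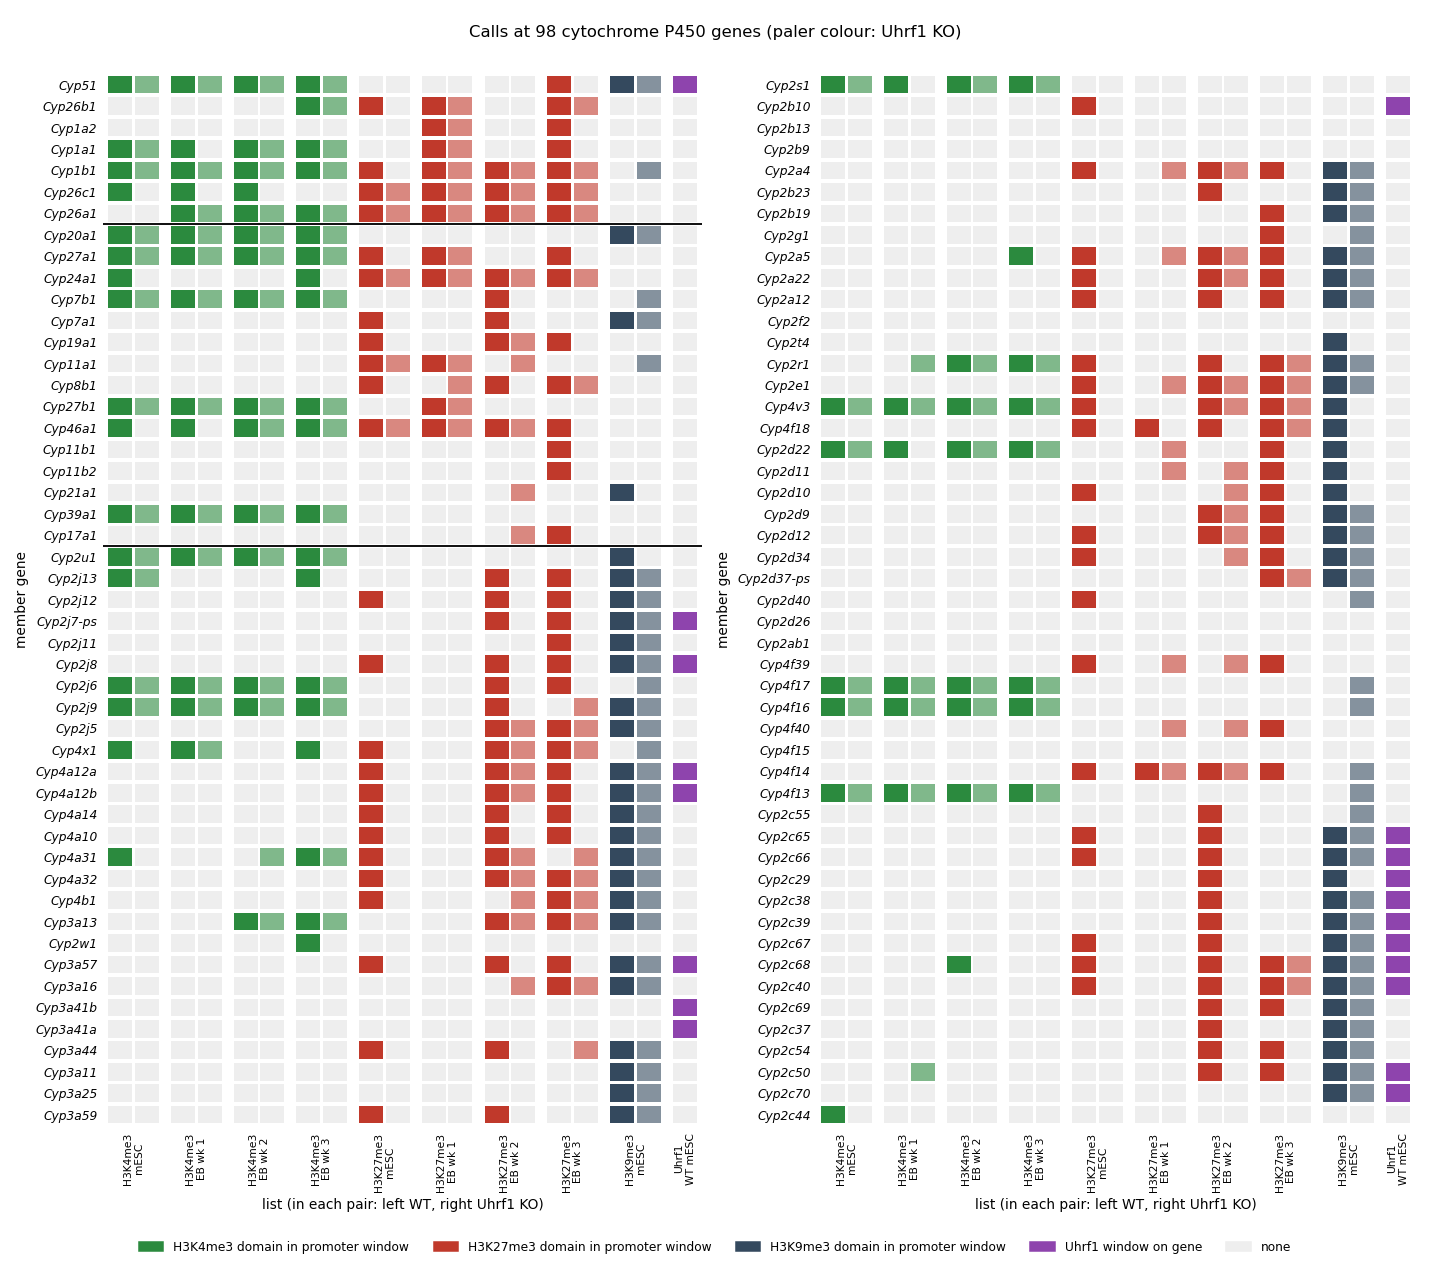
Calls at the 98 P450 genes (rows, ordered as Cyp26/1/51, other families and Cyp2/3/4) in 18 histone lists and the Uhrf1 list (columns, WT left and Uhrf1 KO right in each pair), a filled cell standing for a domain in the promoter window or a Uhrf1 window on the gene. H3K4me3 was absent from 66 genes in all 8 lists, and the H3K27me3 column of KO mESC is filled at 5 genes against 44 in WT.

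The lack of H3K4me3 was uneven between families. In WT mESC it was found at 13 of 76 Cyp2, Cyp3 and Cyp4 promoters (17.1%) and at 4 of 7 Cyp26, Cyp1 and Cyp51 promoters (57.1%), a difference of -40.0 points (-67.9 to -6.42). In WT EB the same comparison gave -58.3 points (-79.4 to -21.5) in the first week, -55.6 (-77.0 to -18.8) in the second and -50.4 (-72.1 to -13.3) in the third. Other rules changed the size of the WT mESC difference but not its sign. It was -18.0 points with only domains above the median score and -30.0 with each run counted once. Requiring at least 50% of the window gave -42.7 points and any annotated start -54.3. Keeping only Cyp2, Cyp3 and Cyp4 genes in runs gave -42.2. Intervals for these values are not given. Of the Cyp2, Cyp3 and Cyp4 genes, 57 of 76 never carried the mark, against 1 of 7 (Cyp1a2, a hepatic enzyme of aromatic amine oxidation) and 8 of 15 in the other families.

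**Figure D2:**
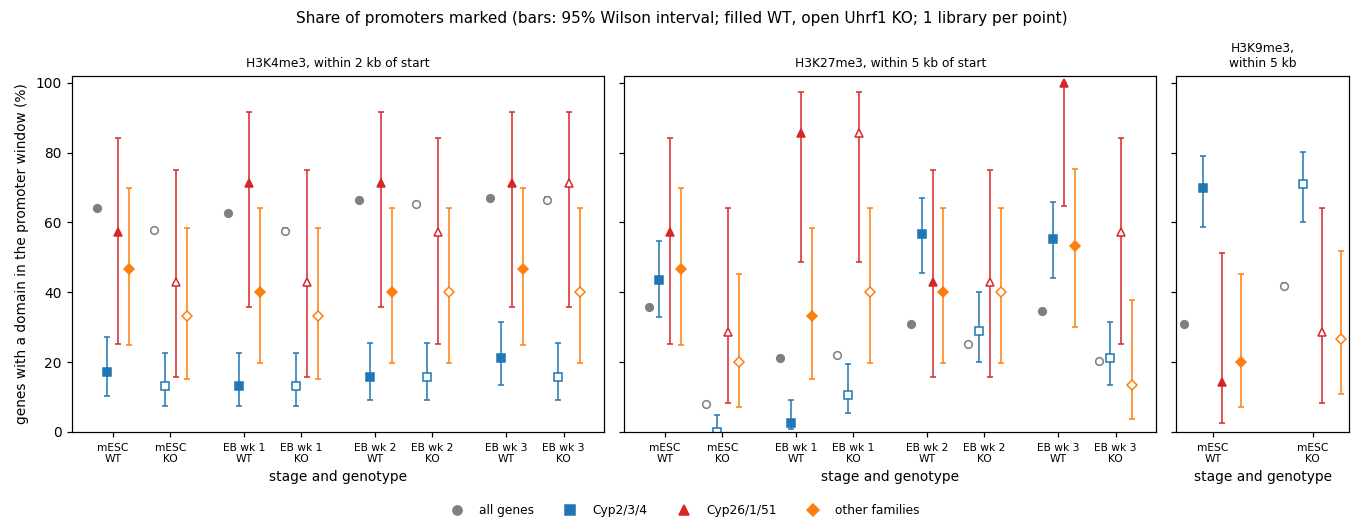
Percentage of promoters with a domain of each mark by stage and genotype for all genes, Cyp2/3/4 (76 genes), Cyp26/1/51 (7) and the other families (15), with 95% Wilson intervals (filled WT, open Uhrf1 KO, 1 library per point). For H3K4me3 the blue squares lie between 13.2% and 21.1%, far under the grey points for all genes, while for H3K9me3 they lie at 69.7% in WT and 71.1% in KO.

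CpG content went with these calls. The 24 P450 promoters with H3K4me3 in WT mESC had a median CpG ratio of 0.424 (0.0968 to 0.855), and the 74 without it 0.134 (0 to 0.758). Among CpG-rich promoters, 7 of 9 P450 genes were marked (77.8%, 45.3 to 93.7%) beside 95.8% of all genes. Among CpG-poor promoters, the figures were 17 of 89 (19.1%, 12.3 to 28.5%) and 36.7%. The CpG-poor class takes in every ratio under 0.6, and P450 genes and all genes were not matched on CpG content within it. Some promoters carried the mark in all 8 lists despite few CpG, such as Cyp2j6, an epoxygenase, with a ratio of 0.250, and its neighbour Cyp2j9 with 0.294.

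**Figure D3:**
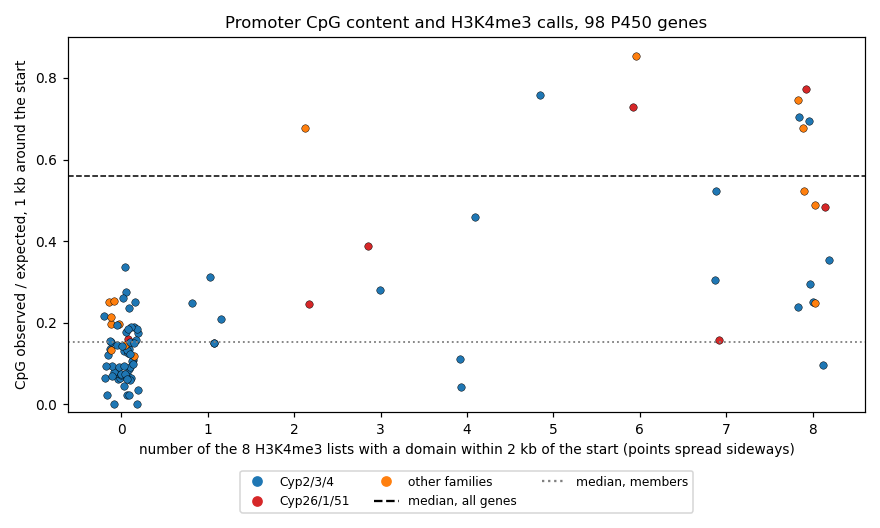
CpG observed over expected within 500 bases of the start (y axis) against the number of the 8 H3K4me3 lists with a domain (x axis), 1 point per P450 gene, coloured by family group, with the medians of all genes (dashed) and of the P450 genes (dotted). The 66 genes with no H3K4me3 list lie at the bottom left, under the dashed line at 0.559.

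Within Cyp26, the genes for retinoic acid hydroxylases, the 3 members followed different courses. Cyp26a1 (ENSMUSG00000024987.5, chr19:37772298-37776018, plus strand) was repressive in mESC of both genotypes and bivalent in EB of both genotypes at all 3 weeks, although the KO domain of week 1 began 1453 bp from the start. Its H3K4me3 domain in WT was 8.0 kb long at week 1 and 14.4 kb at week 3, and in KO 1.4 kb at week 1 and 9.2 kb at week 3. Mean read counts in these domains, in reads per bin, were 7.10 and 6.62 in WT and 6.0 and 7.87 in KO. At weeks 1 and 3 the WT domain was thus the longer one. Over the whole lists the median H3K4me3 domain was 4.8 kb in WT and 3.15 kb in KO at week 1, and 3.8 and 3.6 kb at week 3. The bins and the unknown depth scaling keep the read counts from being compared between lists.

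Cyp26c1, which lies just before Cyp26a1 on the same strand, lost its H3K4me3 call in KO at each stage at which WT had one. In WT it was bivalent in mESC and at weeks 1 and 2 (domains of 10.4, 1.6 and 1.2 kb with 6.77, 6.75 and 7.33 reads per bin), whereas in KO it was repressive in all 4 stages. At week 3 neither genotype had an H3K4me3 call at Cyp26c1. H3K4me3 domains then covered 85.4% of the stretch from Cyp26c1 to Cyp26a1 in WT and 57.7% in KO. Both genes shared a single H3K27me3 domain that covered 100% of the 15.9 kb between their outer ends in every one of the 8 lists. That domain was 419 kb long with a mean of 6.07 reads per bin in WT mESC and 519 kb with 0.589 in KO mESC, and it narrowed to 21.0 kb with 23.0 reads per bin in WT at week 1. Cyp26a1, Cyp26c1 and Cyp24a1, which inactivates vitamin D, were the P450 genes with H3K27me3 in all 8 lists. Cyp26b1 (chr6:84521938-84543740, minus strand) had no H3K4me3 in its promoter window before week 3, when a domain of 12.0 kb with 11.3 reads per bin was listed in WT and one of 11.6 kb with 11 in KO. Within the gene, however, H3K4me3 domains covered 35.8% in WT and 0% in KO mESC, 38.5% and 6.42% at week 1, and 34.9% and 35.3% at week 2. H3K27me3 was missing from the promoter window in both week 2 lists, although a KO domain covered 60.8% of the gene at that stage, and was present at week 3 in WT and KO, which made the promoter bivalent there.

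Cyp51, the sterol 14-demethylase, was active in 7 of 8 lists. Its H3K4me3 domains were 6.0 to 6.8 kb long in WT with 19.3, 26.1, 22.1 and 23.0 reads per bin from mESC to week 3, and 6.3 to 10.4 kb long in KO with 12.3, 18.1, 12.2 and 19.8. The bivalent call of WT at week 3 rested on an H3K27me3 domain whose edge lay 4655 bp from the start. Among the Cyp1 genes, Cyp1b1, which oxidises oestrogens and retinol, kept H3K4me3 in all 8 lists and was bivalent in all but KO mESC. Cyp1a1, the classical target of the aryl hydrocarbon receptor, had H3K4me3 in every list but KO week 1, where it was repressive. Its neighbour Cyp1a2 carried only H3K27me3, at week 1 in both genotypes and at week 3 in WT.

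In the bile acid and cholesterol families, Cyp7b1 and Cyp39a1 (oxysterol hydroxylases) and Cyp27a1 (sterol 27-hydroxylase) had H3K4me3 in all 8 lists. Cyp7a1, the rate-limiting enzyme of bile acid synthesis, had none, and neither had Cyp8b1, which sets the cholic acid share. Cyp7a1 was repressive in WT mESC and WT week 2 and unmarked in the other 6 lists, and carried H3K9me3 in both genotypes. Cyp46a1, the cholesterol 24-hydroxylase of neurons, had the highest CpG ratio of all members (0.855). It was bivalent in WT mESC, with an H3K4me3 domain of 31.2 kb and 6.50 reads per bin, and at week 1, and repressive in KO at both stages. From week 2 on both genotypes carried H3K4me3 there. Of the vitamin D genes, Cyp27b1, which makes the active hormone, had H3K4me3 in all 8 lists, while Cyp24a1 had it in WT mESC (23.4 kb, 11.3 reads per bin) and WT week 3 (1.2 kb, 9.0 reads per bin) and in no KO list. KO domains at weeks 2 and 3 lay farther inside Cyp24a1, over 7.27% and 8.31% of the gene. Cyp20a1, without an assigned function, was active in all 8.

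The steroid hormone genes, which are used in gonad, adrenal and placenta, had no H3K4me3 in the promoter window of any list and differed in H3K27me3. Cyp17a1, the 17-hydroxylase, had an H3K4me3 domain over 34.4% of the gene in WT week 2. Cyp11a1, the side-chain cleavage enzyme that begins steroid synthesis, was repressive in 5 of 8 lists, namely mESC and week 1 of both genotypes and KO week 2. Aromatase (Cyp19a1) was repressive in WT mESC, WT week 2, KO week 2 and WT week 3. Cyp11b1 and Cyp11b2, the adrenal hydroxylase and aldosterone synthase, lay in a single H3K27me3 domain of 50.4 kb at week 3 in WT, and in none of the other 7 lists. Cyp17a1 was repressive in KO week 2 and WT week 3, and the 21-hydroxylase gene Cyp21a1 in KO week 2.

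Of the 76 Cyp2, Cyp3 and Cyp4 genes, 7 had H3K4me3 in all 8 lists: Cyp2u1, Cyp2j6, Cyp2j9, Cyp4v3, Cyp4f13, Cyp4f16 and Cyp4f17, most of them fatty acid hydroxylases or epoxygenases. The domains of Cyp4f16 and Cyp4f17 were joined in KO mESC into one of 71.5 kb. The other 6 with the mark in WT mESC were Cyp2j13, Cyp4x1, Cyp4a31, Cyp2s1, Cyp2d22 and Cyp2c44. Cyp2r1, the vitamin D 25-hydroxylase, gained it in KO at week 1 (0.7 kb, 16 reads per bin) and in both genotypes at weeks 2 and 3. Cyp3a13, expressed in gut, was the only Cyp3 gene with the mark in its promoter window, at weeks 2 and 3, with 15.9 and 11.8 reads per bin in WT and 5.09 and 8.19 in KO. Single calls were found at Cyp2c68 in WT week 2 and at Cyp2c50 in KO week 1.

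H3K4me3 calls in WT were mostly found again in KO. In mESC 18 of 24 marked P450 promoters kept the mark (75.0%, 55.1 to 88.0%), beside 88.1% over all marked promoters. The kept shares were 76.2% at week 1 (16 of 21), 91.3% at week 2 (21 of 23) and 82.1% at week 3 (23 of 28, 64.4 to 92.1%), beside 90.1%, 94.9% and 96.3% over all genes. The interval of the P450 share ended just below the share of all genes in mESC and at week 1 (54.9 to 89.4%), included it at week 2 (73.2 to 97.6%) and lay below it at week 3. The 5 calls lost at week 3 were at Cyp24a1, Cyp2j13, Cyp4x1, Cyp2w1 and Cyp2a5, with WT domains of 0.8 to 2.4 kb and 6.75 to 10.1 reads per bin, and the kept share was 100% when domains under the median score of their list were left out. The call differed between genotypes at 1 or more stages for 15 genes, and at 2 or more for Cyp24a1, Cyp4x1, Cyp4a31, Cyp46a1 and Cyp26c1. Such counts across stages were not made for all genes.

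H3K27me3 was found at 44 of 98 P450 promoters in WT mESC (44.9%, 35.4 to 54.8%), in 32 distinct domains, beside 35.7% of all promoters, a difference of 9.20 points (-0.292 to 19.1). In WT EB it reached 13, 52 and 57 promoters in order of weeks, where 21.2%, 30.9% and 34.6% of all promoters carried it. Against other genes this was 22.3 points more in week 2 (12.5 to 31.9) and 23.7 points more in week 3 (13.8 to 33). In WT mESC 39 of 89 CpG-poor P450 promoters carried H3K27me3 (43.8%, 34.0 to 54.2%), beside 41.6% of all CpG-poor promoters. At week 1 the share was 11.2% (6.22 to 19.5%), beside 18.7%. At weeks 2 and 3 it was 52.8% (42.5 to 62.8%) and 57.3% (46.9 to 67.1%), beside 40.6% and 40.4%. The part of CpG content in the differences from other genes was not tested. Of the 76 Cyp2, Cyp3 and Cyp4 promoters, 33 carried the mark in WT mESC but only 2 one week into EB culture, and 43 and then 42 did so in the later EB. Of the 7 Cyp26, Cyp1 and Cyp51 promoters, 4, 6, 3 and 7 were marked at the same stages. The difference between both groups was -83.1 points at week 1 (-95.0 to -45.5) and -44.7 at week 3 (-55.9 to -7.74), but -13.7 in mESC (-42.7 to 20.3) and 13.7 at week 2 (-20.3 to 42.7), where the intervals include 0. In mESC the sign turned to 12.2 points when each run of neighbours was counted once. The WT week 1 list covered the fewest bases of the 4 WT lists, and its part in the low count was not tested.

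In Uhrf1 KO mESC, H3K27me3 was listed at 5 of the 98 promoters, all 5 of them marked in WT. The kept share was 11.4% (4.95 to 24%), beside 15.8% over all marked promoters, and the interval includes that value. The 5 genes were Cyp24a1, Cyp26c1, Cyp26a1, Cyp11a1 and Cyp46a1. None of the 33 Cyp2, Cyp3 and Cyp4 promoters marked in WT kept it (0 of 33, which allows a share of up to 10.4% by the Wilson interval). The KO domains that held the 5 promoters had mean read counts of 1.27, 0.589, 0.589, 2.47 and 0.310 per bin in this order of genes, and all 5 dropped out when KO domains under the lowest mean count of the WT list were left out. The short KO list and its low counts moved together with the loss, and their part in it was not tested.

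In EB the 2 genotypes differed less evenly. At week 1, 12 of 13 marked promoters kept H3K27me3 in KO (92.3%, 66.7 to 98.6%, beside 72.6% over all genes) and 8 more were marked in KO alone. At week 2, 21 of 52 kept it (40.4%, 28.2 to 53.9%, beside 49.1%), 31 were marked in WT alone and 10 in KO alone. At week 3, 19 of 57 kept it (33.3%, 22.5 to 46.3%, beside 50%), and 38 were marked in WT alone. The week 3 interval lies below the share of all genes. Over the whole lists, the KO domains at week 3 had a median of 5.14 reads per bin against 8.59 in WT, with unknown depth scaling. The P450 kept share fell to 1.75% when KO domains under the lowest mean count of the WT list were left out. That cut was not applied to all genes, so it does not bear on the contrast with them. By family, at week 3, 13 of 42 Cyp2, Cyp3 and Cyp4 promoters kept the mark (31.0%, 19.1 to 46.0%), 4 of 7 Cyp26, Cyp1 and Cyp51 promoters (57.1%, 25.0 to 84.2%) and 2 of 8 others, with overlapping intervals.

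Taking both marks at once, 16 P450 promoters were active in WT mESC, 8 bivalent, 36 repressive and 38 unmarked, or 16.3%, 8.16%, 36.7% and 38.8%, beside 45.3%, 18.9%, 16.9% and 19% of all promoters. In KO mESC 18 were active, none bivalent, 5 repressive and 75 unmarked. These were 18.4%, 0%, 5.10% and 76.5%, beside 53.3%, 4.48%, 3.43% and 38.8% of all promoters. Of the 36 repressive promoters, 34 were unmarked in KO, as were 3148 of 3609 over all genes. The 8 bivalent ones were Cyp27a1, Cyp1b1 and Cyp4v3, which became active, Cyp24a1, Cyp46a1 and Cyp26c1, which became repressive, and Cyp4x1 and Cyp4a31, which became unmarked. Of the 4046 bivalent promoters over all genes, 2448 became active, 238 repressive and 760 unmarked, and 600 stayed bivalent. At week 3, 16 P450 promoters were bivalent in WT, of which 6 stayed so in KO and 6 were active there. Over all genes 4356 were bivalent at week 3 in WT, of which 2042 stayed so and 2037 were active in KO. These counts inherit the short KO mESC list of H3K27me3.

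H3K9me3 domains lay over most of the large arrays in both genotypes, but not over all of them. H3K9me3 reached 57 of 98 P450 promoters in WT mESC (58.2%, 48.3 to 67.4%), in 24 distinct domains, beside 30.9% of all promoters, a difference of 27.3 points (17.4 to 36.6). In KO it reached 60, in 19 domains, beside 41.8% of the other genes, a difference of 19.4 points (9.52 to 28.5). Of the 57 marked in WT, 48 kept it (84.2%, 72.6 to 91.5%, beside 74.9% over all genes). The interval includes that value. By group, 53 of 76 Cyp2, Cyp3 and Cyp4 promoters were marked in WT and 1 of 7 Cyp26, Cyp1 and Cyp51 promoters, Cyp51, a difference of 55.5 points (16.8 to 70.3). In KO the difference was 42.5 points (5.28 to 64.7). Among CpG-poor promoters 52 of 89 P450 genes were marked (58.4%, 48.0 to 68.1%), beside 39.9% of all genes of that class.

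By length, H3K9me3 domains covered 94.3% of the Cyp4a run in WT and 96.7% in KO, 88.8% and 82.8% of the Cyp2d run, 88.0% and 100% of the Cyp2j run, 84.2% in both genotypes of the Cyp3a run, 82.9% and 79.9% of the Cyp2c run and 78.1% and 89.0% of the run from Cyp2b23 to Cyp2t4. On all chromosomes the H3K9me3 lists covered 988 Mb in WT and 1086 Mb in KO, where chromosomes 1 to 19 span 2472 Mb. The remaining large runs were covered less than those named. In the run from Cyp2s1 to Cyp2a4 the coverage was 41.7% in WT and 23.7% in KO, with 1 of 5 promoters marked in each, and in the Cyp4f run it was 35.0% and 65.9%, with 0 and 2 of 5 promoters marked. The domain over Cyp4a14, a fatty acid hydroxylase gene induced through Ppara, was 511 kb long in WT with 18.3 reads per bin and 540 kb in KO with 12.2. The domain over Cyp2c40 was 495 kb with 18.5 reads per bin in WT and 756 kb with 12.0 in KO. The depth scaling of these counts is not stated, so the lower count in KO is not a comparison of levels. The Cyp1a and Cyp26 runs had no H3K9me3 in either genotype.

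H3K27me3 domains lay over the same arrays in WT mESC and were nearly absent from them in KO. They covered 83.4% of the Cyp4a run, 56.1% of Cyp2d, 47.9% of Cyp3a, 43.8% of Cyp2j and 31.4% of Cyp2c in WT, and 0% of each in KO mESC but for 3.48% of Cyp3a. On all chromosomes the WT lists covered 960 Mb in mESC and 1165 Mb at week 2, where chromosomes 1 to 19 span 2472 Mb. Wide coverage by H3K27me3 was therefore not particular to these runs. At week 1 H3K27me3 covered 0 to 9.69% of the 8 large runs in WT. At week 2 it covered 93.3% of the Cyp2j run in WT and 5.13% in KO, and 86.8% of the Cyp2c run in WT, at 13 of whose 14 promoters it was called, and 0% in KO. The Cyp4a run was 90.7% covered in WT and 79.4% in KO at week 2, and 91.4% and 52.5% at week 3. The Cyp2d run was an exception at week 2, with 23.4% in WT and 50.1% in KO, and at week 3 was 90.1% covered in WT and 16.6% in KO. The Cyp4f run also had more in KO at week 2 (18.4% in WT, 50.5% in KO).

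**Figure D4:**
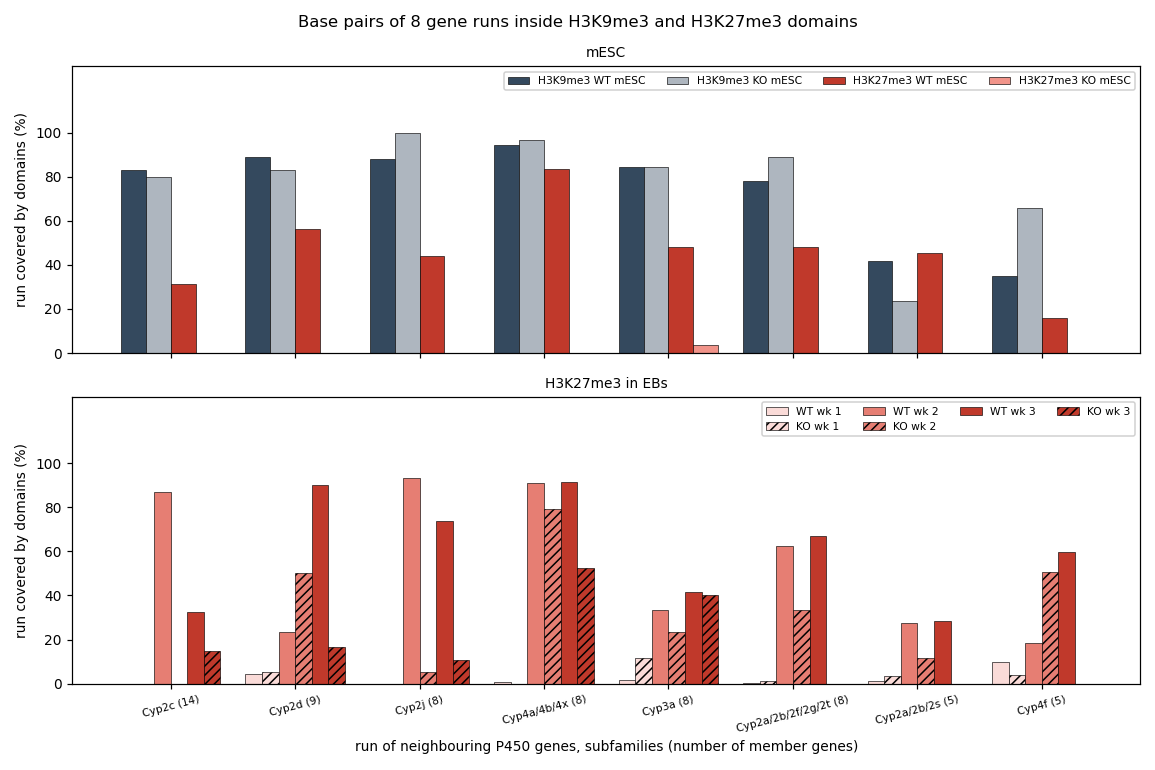
Percentage of base pairs of the 8 runs with 5 or more P450 genes that lay inside H3K9me3 or H3K27me3 domains in mESC (top) and inside H3K27me3 domains in EB (bottom, plain WT, hatched Uhrf1 KO), 1 library per bar. H3K27me3 bars of KO mESC are at 0 in 7 of 8 runs, and at week 2 the Cyp2d and Cyp4f runs have taller bars in KO than in WT while the other 6 have shorter ones.

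In WT mESC, H3K9me3 lay over 29 P450 promoters together with H3K27me3 and over 28 without it. The share with both was 50.9% of the marked P450 promoters (38.3 to 63.4%), beside 60.5% of all promoters with H3K9me3, and the interval includes that value. Every Cyp4a gene and Cyp4b1 belonged to the first set, while Cyp3a11 and Cyp3a25, the main hepatic Cyp3a enzymes, and Cyp2c29, Cyp2c38 and Cyp2c39 belonged to the second. No mark in any of the 18 histone lists was found at 8 promoters: Cyp3a41a, Cyp3a41b, Cyp2b9, Cyp2b13, Cyp2f2, Cyp2d26, Cyp2ab1 and Cyp4f15. The same count was not made over all genes. For Cyp3a41a and Cyp3a41b the calls are uncertain, since 292 of their 300 promoter bases are the same (97.3%) and 1 alignment was kept per read. The promoter of Cyp3a44 shares 277 of 300 with that of Cyp3a41a (92.3%).

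Uhrf1-enriched windows of 10 kb, from 1 WT mESC library, fell on 19 of the 98 P450 genes (19.4%, 12.8 to 28.3%), beside 9.28% of all genes, a difference of 10.2 points (3.54 to 19.1). Except for Cyp51, with a window at chr5:4090001-4100000, all were Cyp2, Cyp3 or Cyp4 genes, 18 of 76 against 1 of 7, a difference of 9.40 points whose interval includes 0 (-28.5 to 25.3). The Cyp2c run held 10 of them: Cyp2c29, Cyp2c38, Cyp2c39, Cyp2c40, Cyp2c50, Cyp2c65, Cyp2c66, Cyp2c67, Cyp2c68 and Cyp2c70. The others were Cyp2j7-ps and Cyp2j8, Cyp4a12a and Cyp4a12b, Cyp3a57, Cyp3a41a, Cyp3a41b and Cyp2b10, the phenobarbital-inducible enzyme. The most windows lay on Cyp3a41b (3), then on Cyp3a41a, Cyp2c66, Cyp2c68 and Cyp2c40 (2 each). The copies Cyp3a41a and Cyp3a41b have the near-identical promoters named above, so reads may be exchanged between them. Within 5 kb of the start, instead of on the whole gene, 8 P450 genes had a window and the sign of the group difference turned to -5.08 points. The share of all genes under this rule was not computed, so whether P450 genes exceed it at their starts is not known.

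Gene length moved with the Uhrf1 calls. The 45 P450 genes under 20 kb had no window (0 of 45, up to 7.87%), beside 5.78% of all genes of that length. Of those of 20 to 50 kb, 13 of 42 had one (31.0%, 19.1 to 46.0%), beside 6.46% of all genes, and of those over 50 kb 6 of 11 (54.5%, 28.0 to 78.7%), beside 21.3%. Median lengths were 22.1 kb for P450 genes and 15.5 kb for all genes. Counted in bases, windows covered 12.2% of the 8 large runs and 12.7% of the Cyp2c run, beside 4.63% of chromosomes 1 to 19. Of the 25 windows on P450 genes, 19 overlapped H3K9me3 domains (76.0%, 56.6 to 88.5%), beside 57.0% of the 11449 windows on these chromosomes. The interval includes that value. H3K27me3 overlapped 13 of 25 (52.0%, beside 47.6%) and H3K4me3 1 of 25 (4.0%, beside 4.73%).

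**Figure D5:**
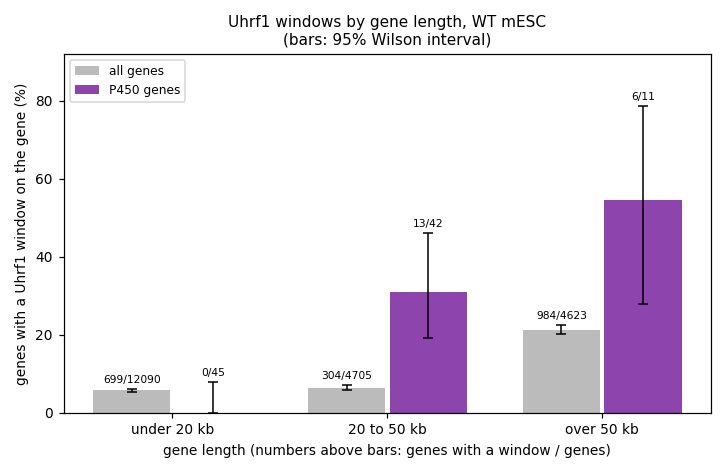
Percentage of genes with a Uhrf1 window on the gene in WT mESC by gene length for all genes (grey) and P450 genes (purple), with 95% Wilson intervals and the counts above each bar. P450 bars stand at 0, 31.0% and 54.5%, against 5.78%, 6.46% and 21.3% for all genes.

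Binding sites of the pluripotency factors were few. An Oct4 summit lay in the gene or within 10 kb of it for 12 P450 genes in WT mESC, where 23.1% of all genes had one, and for none in KO, where 0.854% did. For Sox2 the counts were 3 in WT (14.9% of all genes) and 30 in KO (50.2%), and for Nanog 1 in WT (5.65%) and 12 in KO (21.3%). The lists changed alike over the genome: Oct4 had 12898 summits in WT and 576 in KO, Sox2 5190 and 20755, and Nanog 2390 and 10632. With both lists of a factor held to equal length by summit height, the differences between KO and WT for P450 genes came to 0 for Oct4, 2 for Sox2 and 0 for Nanog.

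The 12 genes near an Oct4 summit were Cyp2j12, Cyp4a31, Cyp51, Cyp19a1, Cyp11b1, Cyp2d12, Cyp2d34, Cyp4f16, Cyp4f15, Cyp2c38, Cyp2c69 and Cyp2c54, with heights of 12 to 83 (median 35.5, against 37 over the list). Within 100 bp of these 12 summits lay a Sox2 summit of KO at 8, of WT at 2, and a Nanog summit of KO at 3 and of WT at 1. Over the 12185 WT Oct4 summits of chromosomes 1 to 19 the shares were 47.1%, 25.0%, 33.2% and 13.2% in this order, each inside the 95% Wilson interval of the P450 share (39.1 to 86.2%, 4.70 to 44.8%, 8.89 to 53.2% and 1.49 to 35.4%). Cyp4a31 was the member with all 3 factors in WT, at position -5283 from its start, with heights of 74 for Oct4, 26 for Sox2 and 13 for Nanog. In KO the same site had 43 for Sox2 and 23 for Nanog and no Oct4 summit. The site of Cyp51, at position -2525, had an Oct4 height of 30 in WT and a Sox2 height of 31 in KO. None of the 3 Cyp26 genes had a site in WT, while in KO each was near a Sox2 summit of height 11 to 15. The summit at chr19:37765516, of height 12, was counted for both Cyp26a1 and Cyp26c1. Cyp2b23 had a Sox2 summit of height 16 in WT as well. Among the Cyp2 and Cyp4 genes without an Oct4 summit, KO Sox2 summits lay near Cyp2b23, Cyp2u1, Cyp2j7-ps, Cyp2t4, Cyp4f18, Cyp4f39, Cyp4f14, Cyp2c66, Cyp2c68, Cyp2c40 and Cyp2c50, with heights of 12 to 27. Outside Cyp2, Cyp3 and Cyp4 they also lay near Cyp20a1, Cyp7b1, Cyp8b1, Cyp19a1, Cyp27b1, Cyp39a1, Cyp46a1 and Cyp1b1, with heights of 12 to 24.

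Partners and regulators of P450 enzymes, 33 genes of which 32 were in the annotation, carried H3K4me3 in WT mESC at about the share of all genes (65.6%, 48.3 to 79.6%, beside 64.1%). H3K4me3 was found at 21 in WT mESC and 16 in KO, 20 and 16 at week 1, 25 and 22 at week 2, and 26 and 25 at week 3. H3K27me3 was found at 14 and 4, 12 and 15, 9 and 13, and 11 and 8, and H3K9me3 at 6 and 8. The electron carriers Cyb5, Cyb5b and Cyb5r3, the sterol regulator Srebf2 and the retinoic acid receptor Rara had H3K4me3 in all 8 lists. Por, the reductase that feeds electrons to most of these enzymes, had it in mESC of both genotypes and in KO week 2. The aryl hydrocarbon receptor Ahr and its partner Arnt had it in all 8 lists.

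The nuclear receptors that control P450 genes in liver differed among themselves. Ppara, the fatty acid sensor, and Nr5a2, which acts on Cyp7a1, were bivalent in all 4 WT stages. Hnf4a and Nr1h4, the bile acid receptor, had H3K4me3 at weeks 2 and 3 in both genotypes, and the pregnane receptor Nr1i2 at week 3 only. The constitutive androstane receptor Nr1i3 had it at week 2 in WT alone. Nr0b2, which represses Cyp7a1, had it at weeks 2 and 3 in WT and in no KO list. Of the retinoic acid synthesis genes, Aldh1a2 was bivalent in all 4 WT stages and in KO unmarked in mESC, repressive at week 1 and bivalent afterwards. Rxra, the partner of several of these receptors, lacked H3K4me3 in KO mESC and had it in the other 7 lists. Uhrf1 windows lay on Rxra, Hnf4a, Nr5a2 and Rarb, 4 of 32 genes (12.5%, 4.97 to 28.1%), beside the 9.28% of all genes. Markers of hepatocytes and yolk sac endoderm carried H3K4me3 at 2 of 7 genes in WT mESC and 1 of 7 in KO mESC, at 6 and 7 at week 2 and at 5 and 6 at week 3. At week 1 it lay at Ttr, Foxa2 and Gata4 in both genotypes, at Apoa1 in WT and at Afp in KO. Of all promoters 64.1%, 62.8%, 66.4% and 67.0% were marked in WT from mESC to week 3. The cardiac markers Tnnt2 and Myh6 had H3K4me3 at week 1 in both genotypes and at week 3 in neither. Nkx2-5 had it in every WT stage and in KO at weeks 1 and 2. The part of these cell types in the late P450 calls was not tested.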

How the data were processed

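Histone domain lists (18), summit lists (6) and a Uhrf1 window list (1) of 33 ChIP-seq samples were analysed, and 8 input samples without a list were not used here. Per the submitters' processing notes, reads were mapped to mm9 with Bowtie2 2.1.0. Following the study's methods, the authors kept 1 alignment per read, called histone domains against input with RSEG, called summits with MACS and called Uhrf1 windows of 10 kb by enrichment over input. The deposited histone lists give a mean read count per bin as signal and a domain score, and the deposited summit lists give a summit height as signal. Bins differ between lists and the depth scaling is not given in the sources used here, so these values describe domains within a list. Where read counts of KO and WT stand side by side above, they describe the lists. A cut across lists was made only in the stated alternative that leaves out KO domains below the lowest WT count. Samples were grouped by genotype, stage and antibody, with 1 library per group; no test was possible. Calls, shares, Wilson and Newcombe intervals and sequence features were computed in Python 3.11 with numpy 2.4.6, scipy 1.17.1 and matplotlib 3.10.9 on the GENCODE vM1 annotation and the mm9 genome. The code was tested on simulated data, with 0 wrong of 24000 calls and 0 wrong of 1000 motif searches. The P450 rule, the gene lists and the family groups were chosen with earlier results of these data known; the CpG classes and length classes were chosen after seeing the data. Genes named were all members outside Cyp2, Cyp3 and Cyp4, and of these those with H3K4me3 in WT mESC, a call that differed between genotypes, a Uhrf1 window or a factor site. Others (Cyp3a11, Cyp3a25, Cyp3a13, Cyp4a14, Cyp4b1 and the genes with no mark) were named after their values were seen or for their sequence. Alternatives were the window, the domain score, the overlap, the read count, the flank, the summit height and the counting of runs.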

Additional observations from a re-analysis of the deposited data

Results flagged for a closer look

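The number of P450 promoters with H3K27me3 was higher in Uhrf1 KO than in WT by 7 at EB week 1, whereas it was lower by 39 in mESC, by 21 at week 2 and by 35 at week 3. Among all genes the count was likewise higher in KO at week 1 only, by 156, and the other stages gave -5962, -1234 and -3060. The stages were set apart by their direction, with 1 library per genotype and stage, and the difference between stages was not tested. The 8 promoters marked in KO alone at week 1 were Cyp8b1 and 7 of Cyp2 and Cyp4: Cyp2a4, Cyp2a5, Cyp2e1, Cyp2d11, Cyp2d22, Cyp4f39 and Cyp4f40. The WT list of that week covered 101 Mb and the KO list 180 Mb.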

How the results depend on the processing

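Of 77 alternatives to 17 results, 59 left the result within its spread, 16 moved it and 2 turned its sign. Leaving out domains under the median score of their list gave kept shares of 100% for H3K4me3 at week 3 and of 66.7% at week 1 and 26.2% at week 2 for H3K27me3. Requiring at least 50% of the window to be covered gave 95% for H3K4me3 at week 3. Leaving out KO domains under the lowest mean read count of WT gave 0% for H3K27me3 in mESC and 1.75% at week 3. Counting each run once turned the H3K27me3 group difference in WT mESC from -13.7 to 12.2 points. Windows within 5 kb of the start left 8 P450 genes with Uhrf1, with no share of all genes computed, and a group difference of -5.08 points. For the change in genes with a site from WT to KO, summits within 2 kb of the start gave 0 for Oct4, 7 for Sox2 and 0 for Nanog, summits above the median height gave -5, 12 and 4, and lists of equal length gave 0, 2 and 0. The cause was not tested in any of these, beyond the fewer domains or summits that each leaves. No paired analysis was possible because each group has 1 library, so groups share a single replicate number. WT and KO were compared within each stage, with 1 cell line per genotype, and stages are not replicates. The main limits are 1 library per group, lists of very different length, unknown depth and neighbouring genes that share domains.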
